A study of Mus musculus with 8 samples.

Results

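The metallothionein and zinc transporter set held 9 genes, chosen by gene symbol from the 48440 genes of the count table with the knockout and control values of that table already known. It comprised the metallothioneins Mt1 and Mt2, their metal-sensing transcription factor Mtf1, the exporters Slc30a1 (ZnT1) and Slc30a10 (ZnT10), and the importers Slc39a4 (ZIP4), Slc39a5 (ZIP5), Slc39a8 (ZIP8) and Slc39a14 (ZIP14). All 9 were found and all 9 passed the filter on low counts. Because the genes were put forward on this very contrast, their differences between genotypes are given as a description, with no p-value.

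RNA was sequenced from whole livers of CD1 mouse pups, 4 with a germline knockout of Myosin 5b (gene Myo5b; animals 275 to 278) and 4 control littermates labelled heterozygous or wildtype (animals 279 to 282). Pups were killed at an age of 3 to 8 days. The labels do not say which controls were heterozygous, nor the age, sex or litter of a single pup, so the part of these in any difference was not tested. The deletion is germline, so every cell type of the pup carried it, and the whole organ was extracted, so a gene's level reflects both the mix of cells and the RNA per cell. Fewer cells of a type and less RNA per cell cannot be told apart.

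Metallothioneins are small cysteine-rich proteins that bind zinc and copper and form a store of zinc in the liver. When cytosolic zinc is high, MTF-1 binds metal response elements in the promoters of Mt1, Mt2 and Slc30a1 and raises their transcription; glucocorticoids and interleukin-6 are further inducers of the metallothioneins in liver. ZIP proteins bring zinc into the cytosol and ZnT proteins move it out, while ZIP14, ZIP8 and ZnT10 also carry manganese between blood, hepatocyte and bile. The liver of newborn rodents is known for its high metallothionein content.

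The promoters of Mt1, Mt2, Slc30a1 and Slc30a10 are printed because they held at least 2 matches to the core of the metal response element, the sequence that MTF-1 binds. All 4 genes were lower in knockout livers, and so was Slc39a5, whose windows held 1 and 0 matches. Of all genes tested 11.4% passed as lower, and these genes were chosen on that contrast. A link between matches and the difference was not tested. Each window runs from 250 bases before the RefSeq start site to 50 after it on GRCm38.p6, plus strand, 5′ to 3′. Capitals mark the core of the element, searched on both strands as TGCACNC or TGCGCNC, where N is any base. The windows are chr8:94178839-94179138 for Mt1, chr8:94172368-94172667 for Mt2, chr1:191906531-191906830 for Slc30a1 and chr1:185454598-185454897 for Slc30a10.
Mt1: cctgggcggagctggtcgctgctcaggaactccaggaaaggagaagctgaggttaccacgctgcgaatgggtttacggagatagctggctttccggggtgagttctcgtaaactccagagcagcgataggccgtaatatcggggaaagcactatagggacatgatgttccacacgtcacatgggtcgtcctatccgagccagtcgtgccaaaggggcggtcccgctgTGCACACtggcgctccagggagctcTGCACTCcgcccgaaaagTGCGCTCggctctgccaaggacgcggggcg
Mt2: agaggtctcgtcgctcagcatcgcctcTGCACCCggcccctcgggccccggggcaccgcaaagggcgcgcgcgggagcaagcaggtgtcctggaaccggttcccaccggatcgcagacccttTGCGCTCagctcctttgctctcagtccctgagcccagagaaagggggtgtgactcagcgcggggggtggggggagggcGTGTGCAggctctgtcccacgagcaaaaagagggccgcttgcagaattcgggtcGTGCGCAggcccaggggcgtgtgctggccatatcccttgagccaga
Slc30a1: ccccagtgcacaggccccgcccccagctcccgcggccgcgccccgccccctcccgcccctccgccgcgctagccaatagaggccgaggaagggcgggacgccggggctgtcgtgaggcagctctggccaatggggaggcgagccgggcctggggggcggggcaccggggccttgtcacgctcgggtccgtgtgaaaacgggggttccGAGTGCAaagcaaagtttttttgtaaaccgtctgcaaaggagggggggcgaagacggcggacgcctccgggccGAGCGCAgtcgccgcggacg
Slc30a10: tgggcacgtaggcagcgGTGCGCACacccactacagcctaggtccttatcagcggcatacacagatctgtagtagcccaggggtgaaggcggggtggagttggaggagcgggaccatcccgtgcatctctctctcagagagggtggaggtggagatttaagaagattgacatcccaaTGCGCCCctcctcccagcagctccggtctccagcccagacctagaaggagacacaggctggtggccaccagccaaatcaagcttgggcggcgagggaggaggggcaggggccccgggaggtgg

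The Mt2 window held 4 matches and the Mt1 window 3, and the Mt1 matches all lay on the printed strand, starting between 23 bases before and 20 bases after the RefSeq start site. Slc30a1 had 2 matches, both on the opposite strand, and Slc30a10 had 3, of which a pair overlaps on opposite strands in its first block of capitals. The first Slc39a5 window and the second Slc39a8 window had 1 match each, and the window of Mtf1 and the other windows of Slc39a5 and Slc39a8 had 0. Of the 32851 windows of the table, 25.7% held at least 1 match, 7.11% at least 2, 1.97% at least 3 and 0.517% at least 4. A match is a run of letters and was not measured as a bound site. The start sites are annotated ones, and where transcription began in these livers was not measured. Elements outside a window, also those further into the gene, were not counted. The RefSeq start of Mt2 lies 46 bases before the first base of the gene in GENCODE M21. Slc39a4 and Slc39a14 were not among the matched windows.

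Levels are given as CPM, reads of a gene per 1000000 reads of the library, scaled by the trimmed mean of M-values (TMM), and a difference as the log2 fold change of knockout over control with its standard error (SE) from edgeR's quasi-likelihood fit over 18274 genes. Library totals ran from 14228268 to 18398039 counts. Myo5b itself averaged 49.3 ± 7.06 CPM in knockout livers and 133 ± 33.1 CPM in control pups (SD, n = 4 each), and the groups did not overlap. Over all genes tested, 20.7% passed an adjusted p of 0.05, 9.27% as higher and 11.4% as lower in knockout livers, and for 23.6% the CPM ranges of the genotypes did not overlap. Of the 9 genes of the set, 5 passed as lower and 0 as higher, and the ranges of the same 5 did not overlap. The median log2 fold change of the 9 genes was -0.63, against 0.01 over all genes. Since this contrast chose the genes, nothing is read from these shares.

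**Figure D1:**
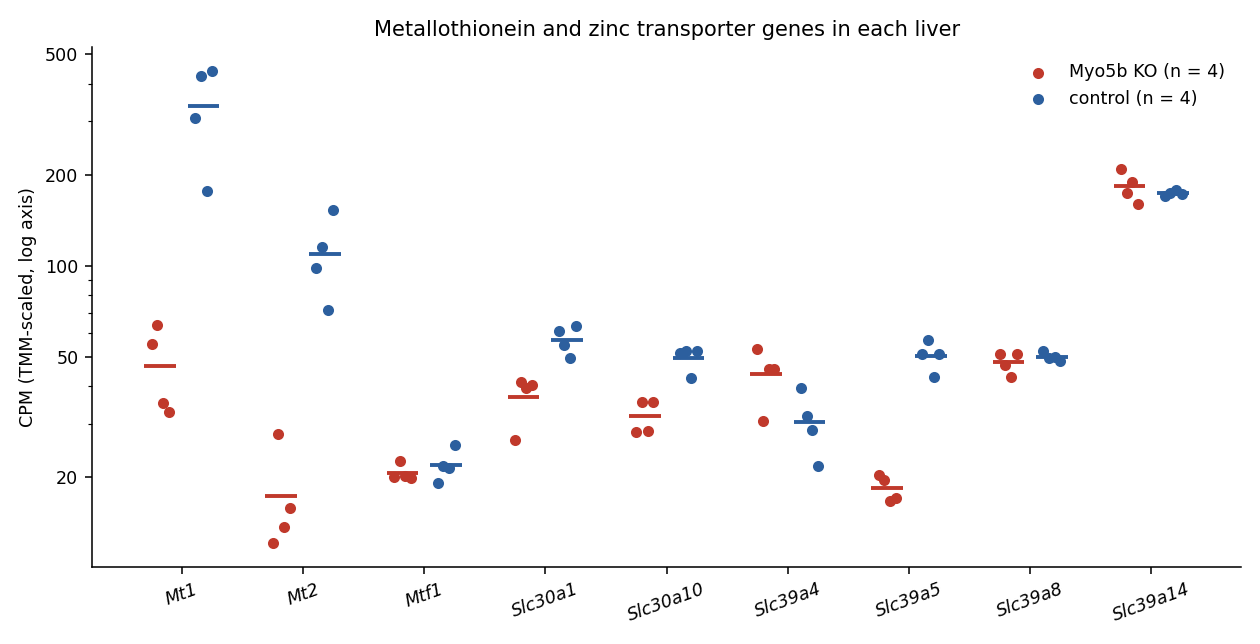
CPM of the 9 genes in each liver on a log axis, with 4 Myo5b knockout livers (red) left of 4 control livers (blue); bars are group means. Mt1, Mt2, Slc30a1, Slc30a10 and Slc39a5 were lower in every knockout liver than in any control, while Mtf1, Slc39a4, Slc39a8 and Slc39a14 overlapped.

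Mt1 and Mt2 showed the widest difference of the set. Mt1 (ENSMUSG00000031765, GRCm38 chromosome 8, 94179082 to 94180327) had 55.05, 63.8, 35.2 and 32.9 CPM in knockout livers 275, 276, 277 and 278, against 308, 425, 177 and 441 CPM in control livers 279, 280, 281 and 282. The highest knockout lay 2.77-fold below the lowest control. Mt1 averaged 46.7 ± 15.1 CPM in knockout livers and 338 ± 123 CPM in control pups (SD, n = 4 each), 7.22-fold lower, with a log2 fold change of -2.85 (SE 0.39). In counts as deposited these were 542 to 998 reads in knockout livers and 2973 to 6344 in controls, so counting error is small beside the spread between pups.

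Mt2 (ENSMUSG00000031762, chromosome 8, 94172664 to 94173568) lies on the same strand, 5513 bases before Mt1. It had 12.1, 27.8, 13.7 and 15.8 CPM in knockout livers 275 to 278, against 98.3, 115, 71.3 and 153 CPM in control livers 279 to 282. The groups did not overlap, and the highest knockout was 2.56-fold below the lowest control. The mean was 17.4 ± 7.12 CPM in knockout livers and 109 ± 34.1 CPM in control pups (SD, n = 4 each), 6.30-fold lower, with a log2 fold change of -2.66 (SE 0.36). In GENCODE M21 the antisense gene Gm45774 covers 73.5% of the Mt2 exon bases; it was not analysed here, and no source used here gives the strand setting of the counting, so reads of the 2 strands at Mt2 cannot be told apart. Mt1 and Mt2 had no match to each other's transcripts over 100 bases or more at 80% identity, and no other GENCODE transcript matched Mt1 at that level. Besides Gm45774, Mt2 matched a Pip5k1a transcript over 195 bases at 85.1% identity.

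The summed level of Mt1 and Mt2 was 67.2, 91.6, 48.9 and 48.7 CPM in knockout livers 275 to 278, against 406, 540, 248 and 593 CPM in controls 279 to 282. Among controls, animal 281 was lowest for both genes and animal 282 highest for both. Among knockouts, animal 276 was highest for both, while the lowest Mt1 was in animal 278 and the lowest Mt2 in animal 275. Per 100 Mt1 counts there were 22.02, 43.6, 39.1 and 48.0 Mt2 counts in knockout livers 275 to 278, against 31.9, 27.1, 40.4 and 34.7 in controls 279 to 282. These ratios overlapped (38.2 ± 11.4 in knockout livers and 33.5 ± 5.56 in control pups; SD, n = 4 each), and they do not depend on library scaling. The spread within a genotype was wide for both: the coefficient of variation was 32.3% in knockout livers and 36.3% in controls for Mt1, and 41.0% in knockout livers and 31.2% in controls for Mt2.

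**Figure D2:**
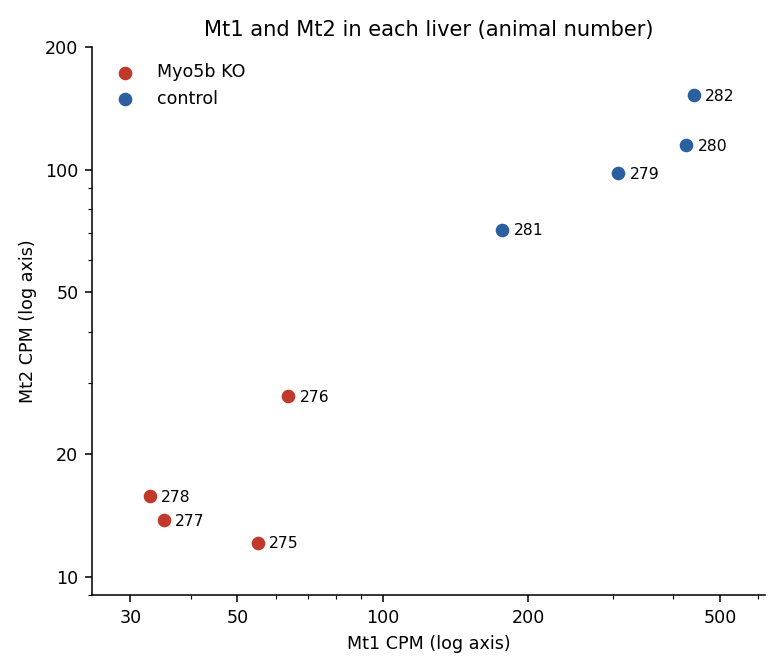
Mt2 CPM against Mt1 CPM in each liver, both on log axes and labelled by animal, with knockout livers in red and controls in blue. The knockout livers lie at 32.9 to 63.8 CPM of Mt1 and the controls at 177 to 441 CPM, and control 281 is the control nearest to the knockouts on both axes.

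The other genes of the locus were used to place the pair. Mt4 and Mt3, metallothioneins of squamous epithelium and of brain, lie before Mt2 on the same strand. Mt3 had 0 counts in every library, which allows up to 3 counts per library (0.163 to 0.211 CPM), and Mt4 had 3 counts over all 8 livers. Within 100 kb of the pair 2 other protein-coding genes passed the filter. Nup93, a nuclear pore subunit, fell to 16.0 ± 1.68 CPM in knockout pups, against 23.8 ± 3.85 CPM in control pups (SD, n = 4 each; log2 fold change -0.57, SE 0.14, edgeR adjusted p = 0.00764). Bbs2, a cilium gene, was at 2.20 ± 0.69 CPM in knockout livers and 2.88 ± 1.24 CPM in controls (log2 fold change -0.38, SE 0.38, edgeR adjusted p = 0.543).

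Mtf1, the factor that reads zinc for the metallothionein promoters, differed little between genotypes. Mtf1 (ENSMUSG00000028890, chromosome 4, 124802104 to 124849800) had 20.01, 22.6, 20.2 and 19.8 CPM in knockout livers 275 to 278, against 19.1, 21.7, 21.5 and 25.7 CPM in controls 279 to 282. The groups overlapped. The log2 fold change was -0.09 (SE 0.13). RNA level says nothing of how much MTF-1 protein was in the nucleus, which was not measured. The coding gene 1110065P20Rik overlaps 8.09% of the Mtf1 exon bases on the other strand and had 418 counts over all libraries, against 2755 for Mtf1.

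The 2 exporters were both lower, by similar sizes. Slc30a1 (ENSMUSG00000037434, chromosome 1, 191906767 to 191913247), the plasma membrane zinc exporter and an MTF-1 target, had 26.6, 41.2, 39.3 and 40.2 CPM in knockout livers 275 to 278, against 60.9, 54.6, 49.5 and 63.1 CPM in controls 279 to 282. Knockout 275 stood below the other knockouts, and the highest knockout was 1.20-fold below the lowest control. The mean was 36.8 ± 6.85 CPM in knockout livers and 57.0 ± 6.18 CPM in control pups (SD, n = 4 each), 1.55-fold lower, with a log2 fold change of -0.63 (SE 0.13).

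Slc30a10 (ENSMUSG00000026614, chromosome 1, 185454848 to 185468762), which exports manganese at the apical membrane of hepatocytes, had 28.3, 35.5, 28.4 and 35.6 CPM in knockout livers 275 to 278, against 51.4, 52.5, 42.6 and 52.2 CPM in controls 279 to 282. All knockouts lay below control 281, the lowest control, by at least 1.20-fold. The mean was 31.9 ± 4.14 CPM in knockout livers and 49.7 ± 4.73 CPM in control pups (SD, n = 4 each), 1.56-fold lower, with a log2 fold change of -0.64 (SE 0.11). Genes on the other strand overlap 8.92% of the Slc30a1 exon bases (1700034H15Rik, 129 counts over all libraries against 5999) and 9.13% of those of Slc30a10 (Gm2061, 101 against 5206).

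Slc39a5 was the one importer among the 9 genes whose groups did not overlap. Slc39a5 (ENSMUSG00000039878, chromosome 10, 128395931 to 128401229, minus strand), a basolateral zinc importer of hepatocytes, enterocytes and pancreatic acinar cells, had 20.3, 19.6, 16.7 and 17.1 CPM in knockout livers 275 to 278, against 51.1, 57.0, 42.8 and 51.2 CPM in controls 279 to 282. The gap between the highest knockout and the lowest control was 2.11-fold. The mean was 18.4 ± 1.80 CPM in knockout livers and 50.5 ± 5.83 CPM in control pups (SD, n = 4 each), 2.74-fold lower, with a log2 fold change of -1.45 (SE 0.12). Its relative spread among livers, 9.74% in knockouts and 11.5% in controls as a coefficient of variation, was far below that of the metallothioneins. Markers of pancreatic acinar cells (Cpa1, Cela2a, Pnlip, Cel and Ctrb1) summed to 0.121 to 1.33 CPM in knockout livers and 0.195 to 1.05 CPM in controls, and none of the 5 passed the filter.

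Slc39a4 was the gene of the set with the highest positive log2 fold change. Slc39a4 (ENSMUSG00000063354, chromosome 15, 76612383 to 76617384, minus strand), the zinc importer known from the intestine and from the human zinc deficiency acrodermatitis enteropathica, had 53.2, 30.6, 45.6 and 45.6 CPM in knockout livers 275 to 278, against 39.5, 31.9, 28.6 and 21.7 CPM in controls 279 to 282. Knockout 276 lay among the controls and the other 3 knockouts lay above all controls. The mean was 43.8 ± 9.46 CPM in knockout livers and 30.4 ± 7.38 CPM in control pups (SD, n = 4 each), with a log2 fold change of 0.52 (SE 0.20) that did not pass in the fit of all libraries. It passed without knockout 276 (0.65) and without control 279 (0.67), in DESeq2 (0.53), when libraries were scaled by size alone (0.60) and with no low-count filter (0.52). Knockout 276 was the lowest knockout and control 279 the highest control, so leaving out either widens the gap. Without any other single library it lay at 0.39 to 0.55 and did not pass. Nor did it pass with median-ratio or upper-quartile scaling, the filter on CPM, limma-voom or either covariate. Of 5 enterocyte markers, Alpi and Sis were at or near 0. Vil1 averaged 3.81 CPM in knockout livers and 1.45 CPM in controls and passed as higher (edgeR adjusted p = 0.0254), though its groups overlapped. Lct averaged 0.471 CPM in knockout livers and 1.34 CPM in controls, and Fabp2 47.9 CPM in knockout livers and 39.8 CPM in controls. Neither Lct nor Fabp2 passed. The part of gut cells in the Slc39a4 value was not tested.

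Set against each other within a library, Slc39a4 and Slc39a5 moved apart. Per 100 Slc39a5 counts there were 262, 156, 273 and 267 Slc39a4 counts in knockout livers 275 to 278, against 77.3, 56.0, 66.7 and 42.5 in controls 279 to 282. The groups did not overlap, and the mean ratio was 239 ± 55.8 in knockout livers and 60.6 ± 14.9 in control pups (SD, n = 4 each), 3.95-fold higher. This ratio does not depend on how libraries are scaled, and it was computed from genes chosen on the same contrast.

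The importers shared with manganese and iron differed little. Slc39a8 (ENSMUSG00000053897, chromosome 3, 135825279 to 135888572), which recovers manganese from bile, had 50.9, 47.1, 42.9 and 51.2 CPM in knockout livers 275 to 278, against 52.2, 49.6, 49.9 and 48.5 CPM in controls 279 to 282. The groups overlapped, with a log2 fold change of -0.06 (SE 0.09) and a value of 0.01 when libraries were scaled by size alone. Slc39a14 (ENSMUSG00000022094, chromosome 14, 70303469 to 70351425, minus strand), an importer of zinc, manganese and iron that interleukin-6 induces, had 209, 174, 189 and 160 CPM in knockout livers 275 to 278, against 171, 174, 179 and 173 CPM in controls 279 to 282. Controls differed by 1.05-fold from lowest to highest and knockouts by 1.31-fold, on both sides of the controls. Its log2 fold change was 0.07 (SE 0.09).

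**Figure D3:**
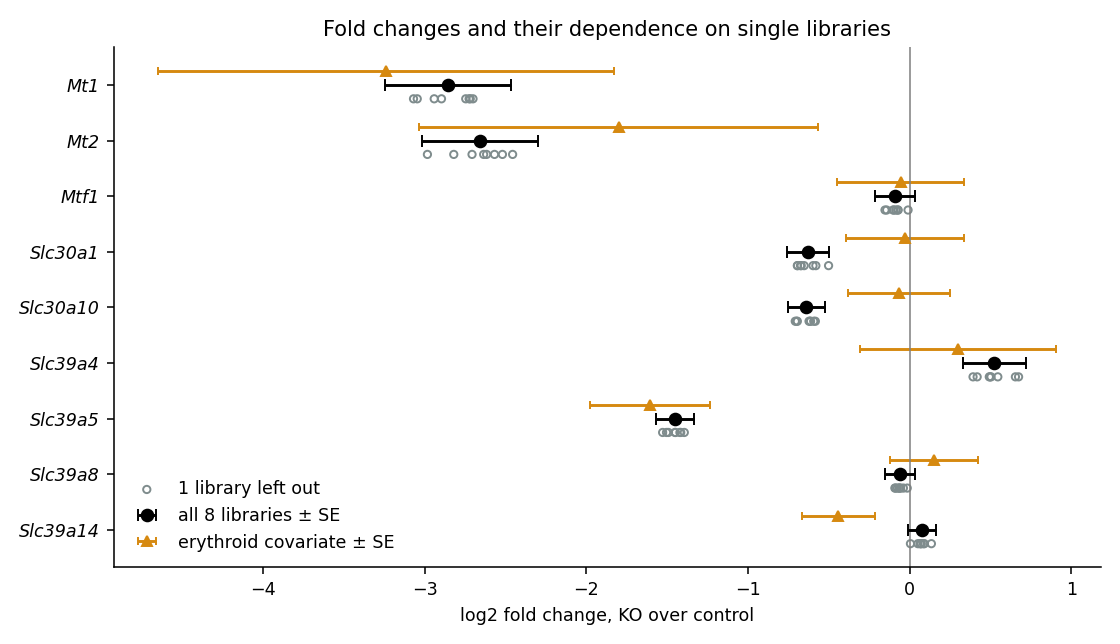
Log2 fold change of knockout over control for the 9 genes. Black points are the fit of all 8 libraries with SE, open circles the fits with 1 library left out, and orange triangles the fit with erythroid marker expression as a covariate, with SE. Mt1 stays between -3.07 and -2.70 and Slc39a5 between -1.53 and -1.39 when any single library is left out. With the covariate Slc30a1 lies at -0.03 (SE 0.37) and Slc30a10 at -0.07 (SE 0.32). The covariate nearly follows genotype (correlation -0.94), so that fit cannot separate erythroid level from genotype.

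The order of the genes by level was compared per length, as CPM per kilobase of the principal GENCODE M21 transcript. In knockout livers Mt1 led with 85.1 ± 27.5 CPM per kb, followed by Slc39a14 (37.2 ± 4.31), Mt2 (34.0 ± 13.9), Slc39a4 (15.9 ± 3.44), Slc39a8 (13.6 ± 1.10), Slc39a5 (9.10 ± 0.89), Slc30a1 (7.03 ± 1.31), Slc30a10 (5.47 ± 0.71) and Mtf1 (2.71 ± 0.17; SD, n = 4 each). In controls Mt1 led with 615 ± 223 CPM per kb, followed by Mt2 (214 ± 66.8), Slc39a14 (35.3 ± 0.68), Slc39a5 (24.9 ± 2.88), Slc39a8 (14.2 ± 0.45), Slc39a4 (11.1 ± 2.68), Slc30a1 (10.9 ± 1.18), Slc30a10 (8.52 ± 0.81) and Mtf1 (2.88 ± 0.36; SD, n = 4 each). Neighbours whose ranges overlapped in knockout livers were Slc39a14 and Mt2, Slc39a4 and Slc39a8, and Slc30a1 and Slc30a10. In controls they were Slc39a8 and Slc39a4, and Slc39a4 and Slc30a1. Among all 18274 genes tested, Mt1 held place 648 by this level in knockout livers and place 85 in controls, and Mt2 place 1885 in knockout livers and place 263 in controls.

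Markers of several cell types moved with genotype, where 9.27% of all genes tested passed as higher and 11.4% as lower. The 11 erythroid markers found in the table, globins and membrane genes of red cell precursors, summed to 2022 to 4138 CPM in knockout livers and 8121 to 10683 CPM in controls, and all 11 fell. By mean log2 CPM of these markers, knockout 278 had the highest erythroid level of its group (7.32) and the lowest Mt1. Knockout 276 came next (6.61) and had the highest Mt1 of the knockouts. Control 282 had the highest erythroid level of its group (8.72) and the highest Mt1. Control 280 had the lowest erythroid level of the controls (8.32), yet its Mt1 (425 CPM) lay above that of controls 279 and 281. Of 10 Kupffer cell markers 9 rose, with sums of 1451 to 1725 CPM in knockout livers and 840 to 954 CPM in controls. All 5 endothelial markers rose, with sums of 811 to 963 CPM in knockout livers and 613 to 664 CPM in controls. Of 7 hepatocyte markers 3 fell (Alb, Ttr and Cps1) while Apoa1, Apob, Fgb and Serpina1a did not pass. Stellate cell markers were mixed, with 2 of 5 higher and 1 lower, and 0 of 5 cholangiocyte markers passed. The part of this shift in the values of the metal genes was not tested. With the mean erythroid level as a covariate none of the 9 genes passed, while the genotype term had a variance 9-fold larger than without that covariate. The covariate correlated with knockout genotype at -0.94, so this fit cannot separate the erythroid level from genotype for any of the genes. Mt1 was then -3.24 (SE 1.41), Mt2 -1.80 (SE 1.23) and Slc39a5 -1.60 (SE 0.37), whereas Slc30a1 (-0.03, SE 0.37) and Slc30a10 (-0.07, SE 0.32) came close to 0.

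Alb, the albumin gene, fell to 32558 ± 4519 CPM in knockout pups, against 68617 ± 8598 CPM in control pups (SD, n = 4 each; log2 fold change -1.08, SE 0.11). Counts of the 5 lower genes were also set against Alb, which raises every knockout over control ratio by the size of Alb's own fall. Per 1000 Alb counts there were 1.54, 2.34, 1.16 and 0.892 Mt1 counts in knockout livers 275 to 278, against 4.59, 5.75, 2.31 and 7.71 in controls 279 to 282, so knockout 276 and control 281 met. The mean was 3.43-fold lower for Mt1 and 2.96-fold lower for Mt2. Slc39a5 was 1.30-fold lower per Alb count, with overlapping groups. Slc30a1 was 1.37-fold higher and Slc30a10 1.35-fold higher per Alb count with overlapping groups, since both fell by less than Alb itself. The turn depends on the hepatocyte transcript used. Ttr (log2 fold change -0.97, SE 0.10) and Cps1 (-0.78, SE 0.12) also fell by more than Slc30a1 and Slc30a10. Apoa1 (0.06, SE 0.10), Apob (0.07, SE 0.09), Fgb (0.02, SE 0.11) and Serpina1a (-0.20, SE 0.10) did not, and would give no such turn.

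**Figure D4:**
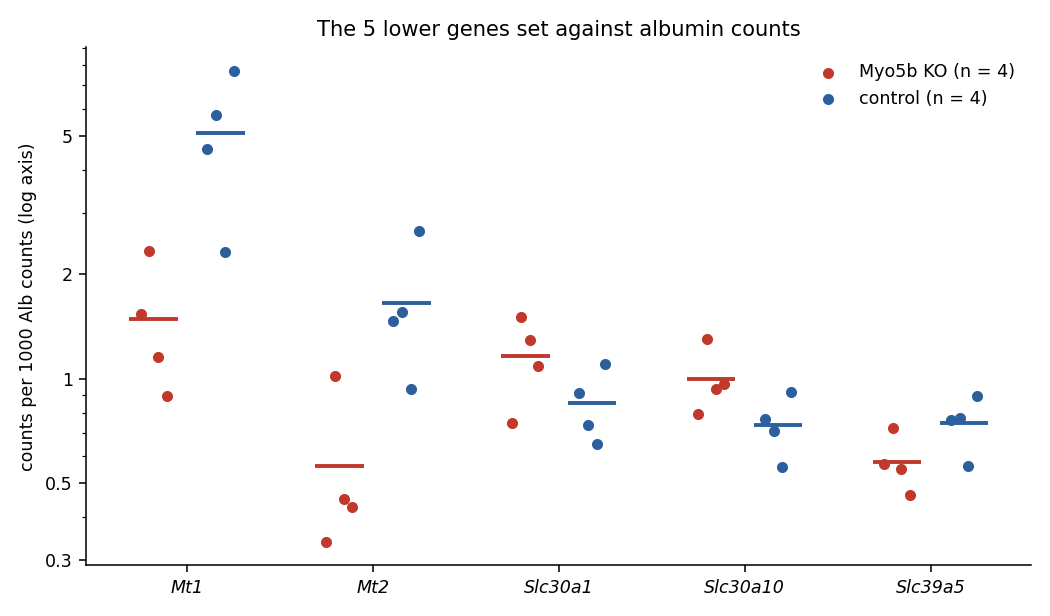
Counts per 1000 Alb counts of the 5 genes that were lower by CPM, in each of 4 knockout livers (red) and 4 control livers (blue), on a log axis with group means. Mt1 averages 1.48 in knockout livers and 5.09 in controls, while Slc30a1 averages 1.16 in knockout livers and 0.85 in controls.

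Most other zinc transporters, like most genes tested, did not pass the test. This list and the related lists below were chosen with earlier results of these data known. The genes named are mainly those of lowest p in each. Of 18 further ZnT and ZIP genes 14 were tested, and 1 rose and 1 fell (9.27% and 11.4% over all genes). The median log2 fold change was 0.12, against 0.01 over all genes. Slc39a1, a widely expressed plasma membrane importer, rose to 69.7 ± 2.82 CPM in knockout pups, against 58.3 ± 2.66 CPM in control pups (SD, n = 4 each; 0.26, SE 0.08, edgeR adjusted p = 0.0337). Slc30a4, which loads zinc into vesicles, fell to 17.98 ± 2.10 CPM in knockout pups, against 24.0 ± 2.72 CPM in controls (-0.42, SE 0.13, edgeR adjusted p = 0.0316). Slc30a5, a transporter of the early secretory pathway, was at 36.7 ± 1.76 CPM in knockout livers and 29.8 ± 2.94 CPM in controls (0.30, SE 0.11, edgeR adjusted p = 0.0576), and its groups did not overlap. Slc39a1 lost its call on removal of knockout 275, 276 or 277 or control 279, 280 or 281, leaving 0 genes higher. Slc30a4 lost its call on removal of knockout 276 or 277 or control 279, 281 or 282, leaving 0 genes lower. Slc30a2, Slc30a8, Slc39a2 and Slc39a12 did not pass the filter.

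Other genes described as MTF-1 targets moved in both directions. Of 8 listed 7 were tested, 3 fell and 1 rose (11.4% and 9.27% over all genes), with a median of -0.18. The list does not mark in which direction MTF-1 acts on a gene. Slc39a10 (0.39, SE 0.20), which did not pass, is counted both here and among the other zinc transporters. Ndrg1, a stress-responsive gene, fell to 33.0 ± 4.01 CPM in knockout pups, against 56.7 ± 10.5 CPM in control pups (SD, n = 4 each; -0.78, SE 0.13, edgeR adjusted p = 4.86e-04). Gclc, the catalytic subunit of glutamate-cysteine ligase, fell to 204 ± 20.6 CPM in knockout pups, against 276 ± 29.7 CPM in controls (-0.44, SE 0.10, edgeR adjusted p = 0.00329), and Selenoh, a selenoprotein, fell by 0.64 (SE 0.21, edgeR adjusted p = 0.0410). Selenoh lost its call on removal of knockout 275, 276 or 278 or control 280 or 281, which left 2 lower. The gene that rose was Hamp, the iron hormone hepcidin, picked with its values in view, with 71.6, 70.2, 153 and 218 CPM in knockout livers 275 to 278 and 37.3, 33.4, 56.8 and 26.4 CPM in controls 279 to 282 (1.73, SE 0.48, edgeR adjusted p = 0.0496). Its call was lost without any single library other than knockout 276.

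Copper genes, which share the metallothioneins as a store, were also mixed. Of 11 listed 10 were tested, 2 rose and 1 fell (9.27% and 11.4% over all genes), with a median of -0.16. Atp7b, the hepatocyte copper pump that is mutated in human Wilson disease, fell to 47.9 ± 7.76 CPM in knockout pups, against 86.7 ± 7.87 CPM in control pups (SD, n = 4 each; -0.85, SE 0.11, edgeR adjusted p = 3.69e-05), and the groups did not overlap. Cp, the plasma copper protein ceruloplasmin, rose to 2240 ± 157 CPM in knockout pups, against 1604 ± 149 CPM in controls (0.48, SE 0.09, edgeR adjusted p = 9.78e-04). Slc31a2, a copper transporter of endosomes, rose by 0.43 (SE 0.14, edgeR adjusted p = 0.0435). On removal of knockout 275, 276 or 278 or control 279, 280 or 282 only 1 gene was higher, and on removal of control 281 there were 2 lower.

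Genes that respond to known inducers of the metallothioneins were also listed, and those named were again picked mainly on their p. The activity of the inducers was not tested. Of 11 glucocorticoid response genes 2 rose and 0 fell (9.27% and 11.4% over all genes). Without knockout 278, 1 fell. The median was -0.00392. Zbtb16 rose to 38.5 ± 6.02 CPM in knockout pups, against 14.9 ± 2.76 CPM in control pups (SD, n = 4 each; 1.37, SE 0.15, edgeR adjusted p = 7.71e-06), and the kinase gene Sgk1 rose by 0.48 (SE 0.10, edgeR adjusted p = 0.00288). Dusp1, a phosphatase gene, was at 35.6 ± 5.54 CPM in knockout livers and 46.1 ± 14.4 CPM in controls (-0.37, SE 0.21, edgeR adjusted p = 0.258). Nr3c1, the glucocorticoid receptor, was at 126 ± 5.56 CPM in knockout livers and 127 ± 6.05 CPM in controls; it was picked with its values in view.

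Of 15 genes of interleukin-6 signalling and the acute phase 13 were tested, 5 rose and 0 fell (9.27% and 11.4% over all genes). The median was 0.39. Il6st, the shared signalling receptor gp130, rose to 340 ± 20.5 CPM in knockout pups, against 222 ± 11.4 CPM in control pups (SD, n = 4 each; 0.61, SE 0.08, edgeR adjusted p = 3.86e-05). Hp, haptoglobin, rose by 0.50 (SE 0.10, edgeR adjusted p = 0.00187) and Stat3, the transcription factor of the pathway, by 0.39 (SE 0.08, edgeR adjusted p = 0.00259). The other 2 that rose were Socs3, the feedback inhibitor of the pathway (0.77, SE 0.18), and Hpx, the heme-binding protein hemopexin (0.44, SE 0.11). Saa1 and Saa2, strongly induced acute phase genes, did not pass the filter.

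Of 10 oxidative and metal stress genes 9 were tested, 5 rose and 1 fell (9.27% and 11.4% over all genes). The median was 0.60. Hmox1, heme oxygenase, rose to 129 ± 7.93 CPM in knockout pups, against 77.9 ± 5.601 CPM in control pups (SD, n = 4 each; 0.72, SE 0.08, edgeR adjusted p = 1.27e-05), and Osgin1 rose by 0.82 (SE 0.13, edgeR adjusted p = 5.03e-04). Sqstm1, an autophagy receptor (0.48, SE 0.10), and the heat shock genes Hspa1a (1.98, SE 0.56) and Hspa1b (2.09, SE 0.36) also rose; the heat shock pair is nearly identical in sequence, so the split of reads between them is uncertain. Gclm, the partner subunit of Gclc, fell to 111 ± 5.84 CPM in knockout pups, against 195 ± 19.6 CPM in controls (-0.81, SE 0.09, edgeR adjusted p = 5.54e-06). On removal of knockout 276 or control 281 there were 2 lower. Hspa1a had only 1 to 46 counts per library and lost its call on removal of knockout 277 or control 281. Over the fits that left out a library, 4 to 6 genes of the list were higher. Kupffer cell markers rose in the same livers, and heme oxygenase is also made by those cells; their part was not tested.

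**Figure D5:**
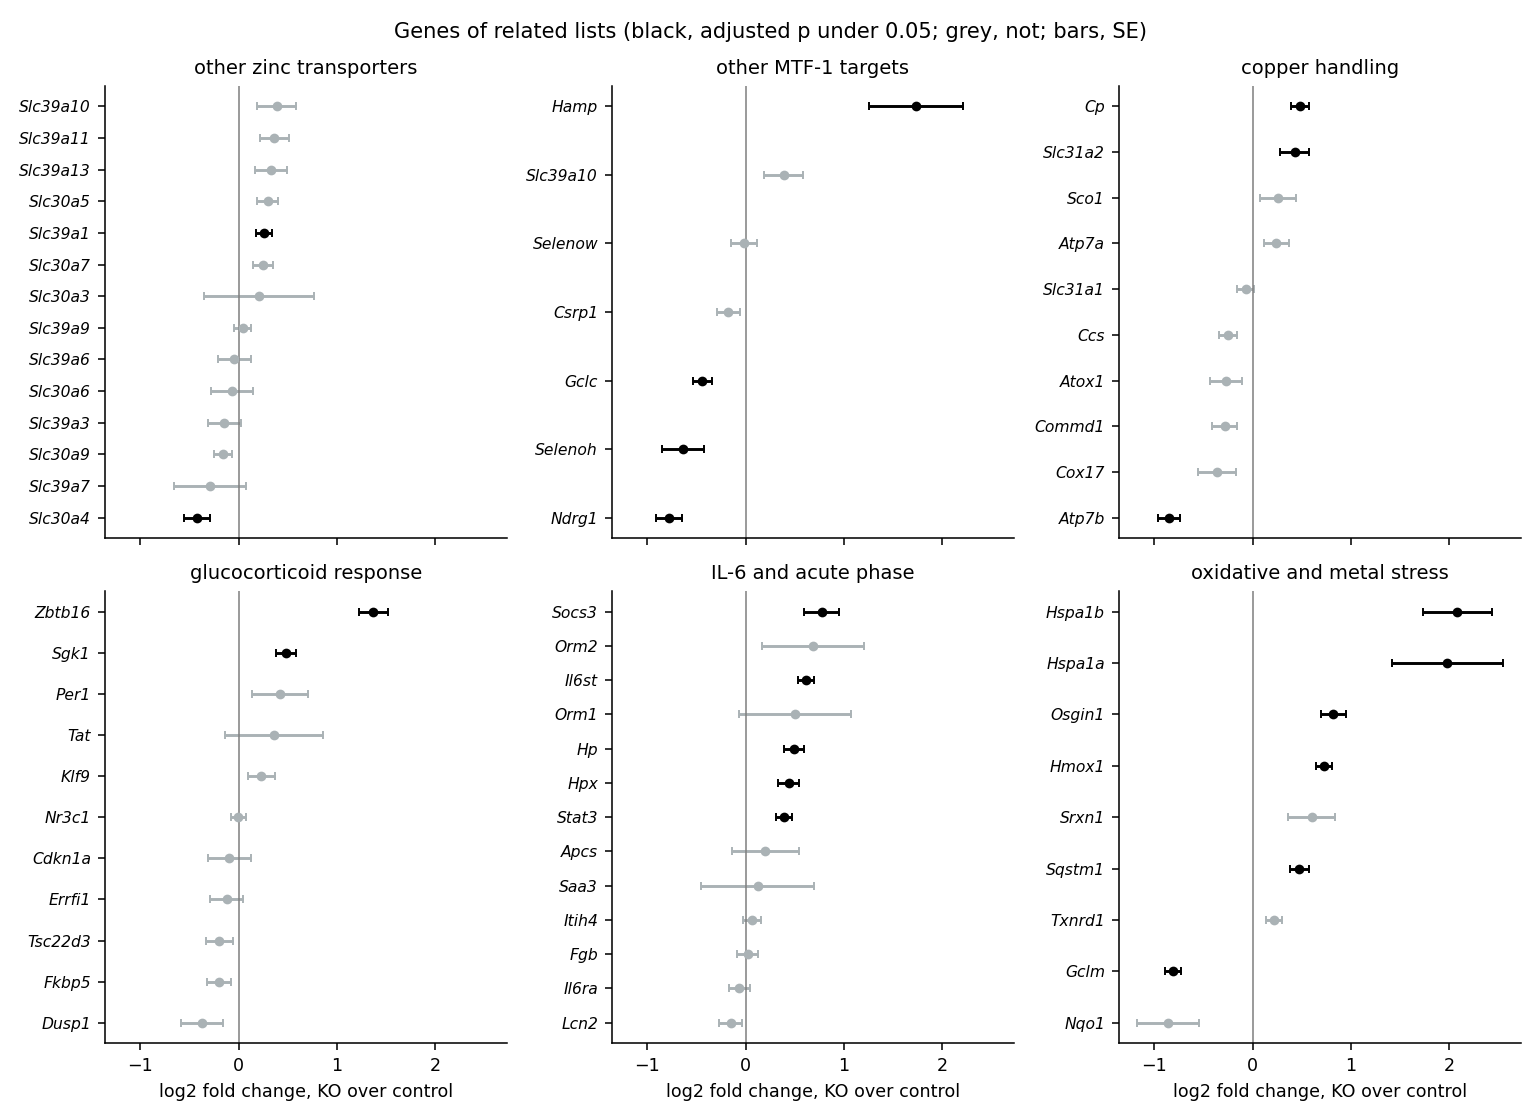
Log2 fold change of knockout over control, with SE, for the tested genes of 6 related lists; black marks an adjusted p under 0.05. Gclm, Gclc and Atp7b lie below 0 while Hmox1, Il6st and Cp lie above it, and 12 of the 14 other zinc transporters did not pass. Over all genes tested 20.7% passed.

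The genes most like each member were taken as those with the smallest root-mean-square difference of centred log2 CPM over the 8 livers, among 12171 genes with a mean of at least 5 CPM. Nearest to Mt1 was Mt2 (0.35), then the complement gene C9 (0.39) and the carboxylesterase gene Ces1f (0.42), whose close relatives could share its reads, and nearest to Mt2 was Mt1, then C9 (0.39) and Ces1f (0.40). For scale, the values of Mt1 spread by 1.49 around their own mean on the same scale. The difference between genotypes was not removed, so it is part of that spread, and a gene of like fold change comes out near. C9 (-2.76) and Ces1f (-2.94) had log2 fold changes close to that of Mt1 (-2.85). Likeness among livers of the same genotype was not tested. Nearest to Slc39a5 were Neurl1b (0.10), Rida (0.13) and Spc24 (0.16), and nearest to Slc30a10 were Stx2 (0.07), H3f3c (0.07) and Tmprss6 (0.09). Slc30a1 had Sass6 (0.08), Brip1 (0.09) and 2310022B05Rik (0.11), and Slc39a4 had Gm19243 (0.13), Rilpl1 (0.17) and the zinc transporter Slc39a13 (0.17). Mtf1, Slc39a8 and Slc39a14 varied little, and their nearest genes, led by Cd3eap, Nono and Lrrc8a, were likewise nearly flat.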

How the data were processed

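RNA from 8 whole livers was sequenced, and the deposited table holds raw read counts per Ensembl gene. Per the labels' protocols the authors aligned reads with Rsubread 2.20.0 in R 4.4.1 to a build written GRMm38, read here as GRCm38; featureCounts is named in the submitters' processing notes. The annotation, strand setting and treatment of multi-mapping reads could not be taken from the labels and are not given in the sources used.

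Of 48440 genes, 48058 matched a GENCODE M21 symbol. The count test was that of edgeR 4.0.16, run in R 4.3.3 beside limma 3.58.1: filterByExpr defaults (minimum count 10, minimum total 15) left 18274 genes, TMM scaling, the robust quasi-likelihood F-test, and Benjamini-Hochberg adjustment over all genes tested, with a threshold of 0.05. The SE is the log2 fold change divided by the square root of F. The fit was tested on simulated data. Log2 CPM used a prior count of 2. Libraries of a group differed by more than sampling noise (chi-square per degree of freedom 11.9 to 21.8), so each was 1 sample; nothing in the labels says more of how pups were drawn. Library totals were 14228268 to 18398039. Intervals from counting do not cover the spread between pups.

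The genes and lists were chosen with earlier results of these data known. Named were the 9 genes, Myo5b, up to 3 genes of lowest p per related list and the 3 nearest genes of each member; others are said to be later choices or are cell markers and neighbours of the locus. Sequences come from RefSeq on GRCm38.p6, with windows matched for 7 of the 9 genes. The alternatives comprised scaling by median ratio, by upper quartile and by library size alone, no low-count filter, at least 1 CPM in 4 libraries, DESeq2 1.42.0, limma-voom with quality weights, covariates for erythroid and for Y-linked genes, and each of the 8 libraries left out. Transcripts were compared with blastn 2.17.0, and figures drawn with matplotlib 3.10.9.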

Additional observations from a re-analysis of the deposited data

Results flagged for a closer look

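In 74 groups of 4 libraries (each reported gene or ratio in each genotype) 9 had 1 liver far from the other 3 by Dixon's criterion, which chance meets in about 5% of such groups. Slc30a1 was 26.6 CPM in knockout 275, against 39.3 to 41.2 CPM in the other knockouts. Mtf1 was 22.6 CPM in knockout 276, against 19.8 to 20.2 CPM in the others. Slc30a10 was 42.6 CPM in control 281, against 51.4 to 52.5 CPM in the other controls. Mt2 per 1000 Alb counts was 1.02 in knockout 276, against 0.340 to 0.452 in the others, and Slc39a4 per 100 Slc39a5 counts was 156 in the same liver, against 262 to 273. Among genes of the related lists, Hp was 2105 CPM in knockout 277 (2667 to 2751 CPM in the others), Selenoh 10.95 CPM in knockout 277 (7.46 to 8.05 CPM), and Il6st 309 CPM in knockout 278 (349 to 351 CPM) and 205 CPM in control 282 (227 to 229 CPM in the other controls).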

How the results depend on the processing

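The edgeR fit of all 8 libraries called 1694 genes higher and 2088 lower. With erythroid marker expression as a covariate it called 23 higher and 19 lower. Leaving out 1 library gave 1223 to 1762 higher and 1699 to 2167 lower, and the other alternatives stayed within 1.5 times. With library size alone 57.6% of calls were higher, against 44.8%. The 5 lower members kept their call and direction in 8 of 8 fits that left out a library and in 8 of the 9 other alternatives, the exception being the erythroid covariate. These genes were chosen on this contrast and the fits reuse the same libraries, so this describes the fits and is no independent support. Slc39a14 turned to -0.44 with that covariate, and Slc39a8 turned to 0.15 with it and to 0.00925 with library size alone. The number of members called higher was 1 (Slc39a4) in 5 alternatives. With the erythroid covariate 0 genes of any related list passed, against 5 higher among interleukin-6 and acute phase genes, 5 higher and 1 lower among stress genes, 2 higher among glucocorticoid genes, 2 higher and 1 lower among copper genes, 1 higher and 3 lower among other MTF-1 targets, and 1 higher and 1 lower among other zinc transporters without it. Over the remaining alternatives the other zinc transporters that rose numbered 0 to 3 and those that fell 0 to 1, copper genes that rose 1 to 2, and other MTF-1 targets that rose 0 to 1 and fell 2 to 3. Selenoh also lost its call with upper-quartile scaling, library size alone, limma-voom and the Y-linked covariate. No paired analysis was possible because the groups share no replicate number.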
